A study of Caenorhabditis elegans with 8 samples.

Results

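The 5 genes described here encode metabolic enzymes of Caenorhabditis elegans and are all the rows of the deposited gene table that carry their IDs: asah-1 (K11D2.2), gsto-3 (K10F12.4), hphd-1 (Y38F1A.6), afmd-2 (Y45F10A.3) and acs-10 (AH10.1). They are 5 of 1937 genes in that table, and 5 of the 1931 genes that passed a filter on low counts. The genes were selected on their measured small RNA counts in rde-12 against wild type, so the differences between genotypes are given for them as a description, without a test. Small RNAs were sequenced from whole young adults of N2, the standard wild-type strain, and of rde-12(hj41), which carries a mutation in the gene for the DEAD-box helicase RDE-12. Both genotypes had eaten OP50, the usual laboratory Escherichia coli, for 50 h at 20 °C from a synchronised larval start, with about 50000 worms in a sample, and libraries were made from gel-purified RNA between 20 and 26 nt long. Each genotype had 2 libraries, described in the labels as biological samples, and p-values rest on the spread between them. The other 4 of the 8 libraries of the series, from animals fed a sel-1 trigger, were not analysed here for these genes. The sources used here do not say what kind of change hj41 makes in the gene, and rde-12 itself has no row among the rows used, so the counts do not check the mutation.

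In this animal, RNA-dependent RNA polymerases copy messenger RNAs into short antisense RNAs. Argonaute proteins carry these and can use them to silence transcripts of matching sequence. RDE-12 acts in the step that amplifies such RNAs. A gene's small RNA count therefore describes how much small RNA matches it. It is not a measure of the gene's messenger RNA, enzyme or silencing. The sources used here do not say which strand was counted, so the counts can hold sense as well as antisense reads.

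The enzymes come from separate corners of metabolism. ASAH-1 belongs to the acid ceramidases, which split ceramide into sphingosine and a fatty acid. GSTO-3 belongs to the omega class of glutathione transferases, enzymes of redox and detoxification chemistry. HPHD-1 oxidises 3-hydroxypropionate in the propionate shunt, the route that breaks down propionate when vitamin B12 is scarce. AFMD-2 is named as an arylformamidase, the enzyme type that turns N-formylkynurenine into kynurenine in tryptophan breakdown. ACS-10 belongs to the acyl-CoA synthetases, which activate fatty acids.

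Small RNAs were scarcer in rde-12 than in N2 at asah-1 and gsto-3, more abundant at hphd-1 and afmd-2, and close to equal at acs-10. By edgeR's quasi-likelihood test over the whole table (Benjamini-Hochberg adjusted p under 0.05), 2 of the 5 genes were on the falling side, where 13.9% of all tested genes were, and 2 on the rising side, where 13.8% were. Nothing is read from these counts, since the same values led to the choice of the genes. Both rde-12 libraries lay below both N2 libraries at 2 of the 5, as at 33.4% of tested genes, and above them at 2, as at 30.8%, so 4 showed no overlap, as did 64.2% of tested genes. Levels are given as CPM, which are counts per 1000000 counts at tested genes in the same library, with the totals scaled by TMM factors. The totals, between 4270098 and 5563151 counts a library, cover a selection of genes made before deposit and are not whole-library depths.

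**Figure D1:**
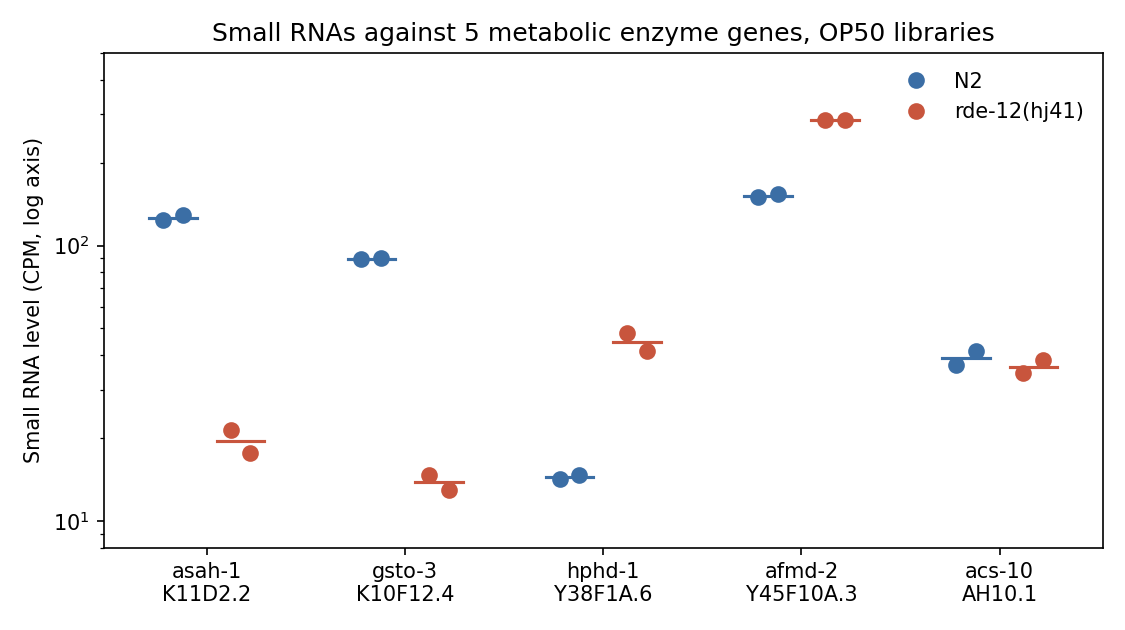
Small RNA level in each OP50 library (CPM, log axis) for the 5 enzyme genes; points are libraries, blue for N2 and red for rde-12(hj41), and short lines are means of 2 libraries. At asah-1 and gsto-3 the rde-12 points lie far below the N2 points, at hphd-1 and afmd-2 they lie above, and at acs-10 the points of the genotypes interleave.

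At asah-1, 521 and 562 small RNAs were counted in the N2 libraries and 118 and 79 in the rde-12 libraries. These were 124 and 129 CPM in N2 and 21.4 and 17.6 CPM in rde-12. Both rde-12 libraries lay far below both N2 libraries. The mean level was 126 ± 3.61 CPM in N2 and 19.5 ± 2.67 CPM in rde-12 (SD, n = 2 each), 6.41-fold lower, with a log2 change of −2.68 ± 0.114 (SE). Without rde-12 replicate 1, the higher of the rde-12 libraries, the log2 change was −2.83.

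At gsto-3 the counts were 376 and 392 in N2 and 81 and 58 in rde-12. Its level was 89.3 and 89.8 CPM in the N2 libraries and 14.7 and 13.0 CPM in the rde-12 libraries, again with no overlap. The mean went from 89.5 ± 0.406 CPM to 13.8 ± 1.24 CPM, 6.43-fold lower, with a log2 change of −2.68 ± 0.122 (SE). The losses at asah-1 and gsto-3, which lie on chromosomes I and III, were of nearly the same size. Both genes were chosen on this change, so nothing is read from that likeness. Among the log2 changes of all 1931 tested genes, gsto-3 took place 25 and asah-1 place 27, counted from the deepest fall.

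At hphd-1 small RNAs were few in wild type, with 60 and 64 counts, and more numerous in rde-12, with 264 and 185. The levels were 14.2 and 14.7 CPM in N2 and 47.9 and 41.3 CPM in rde-12, so both mutant libraries lay above both wild-type ones. Exact Poisson 95% intervals, which cover counting error only, ran from 10.9 to 18.3 and from 11.3 to 18.7 CPM in the N2 libraries. In the rde-12 libraries they ran from 42.3 to 54.1 and from 35.6 to 47.7 CPM. The mean rose from 14.5 ± 0.299 to 44.6 ± 4.67 CPM, 3.098-fold higher in rde-12, with a log2 change of 1.63 ± 0.143 (SE). It held place 2 of 1931 counted from the largest rise.

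At afmd-2 the counts were 631 and 669 in N2 and 1570 and 1279 in rde-12. Scaled, they were 150 and 153 CPM in N2 and 285 and 286 CPM in rde-12, the closest agreement of mutant replicates among the 5 genes. The mean was 152 ± 2.49 CPM in N2 and 285 ± 0.497 CPM in rde-12, 1.88-fold higher, with a log2 change of 0.91 ± 0.0613 (SE). This was place 11 of 1931 from the largest rise, so afmd-2 stood high in the order with a change below 2-fold. Only 6 of the 267 genes that rose exceeded 2-fold, whereas 65 of the 268 that fell did.

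At acs-10 the counts were 155 and 181 in N2 and 189 and 172 in rde-12. The levels, 36.8 and 41.5 CPM in N2 and 34.3 and 38.4 CPM in rde-12, overlapped between genotypes. The means were 39.1 ± 3.31 and 36.4 ± 2.91 CPM, and the log2 change was −0.11 ± 0.122 (SE). That difference is smaller than its standard error. With 1 library left out at a time, the log2 change ran from −0.19 to −0.02. At this depth a small change in either direction would not have been seen, and the values do not show that acs-10 is untouched by the mutation.

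**Figure D2:**
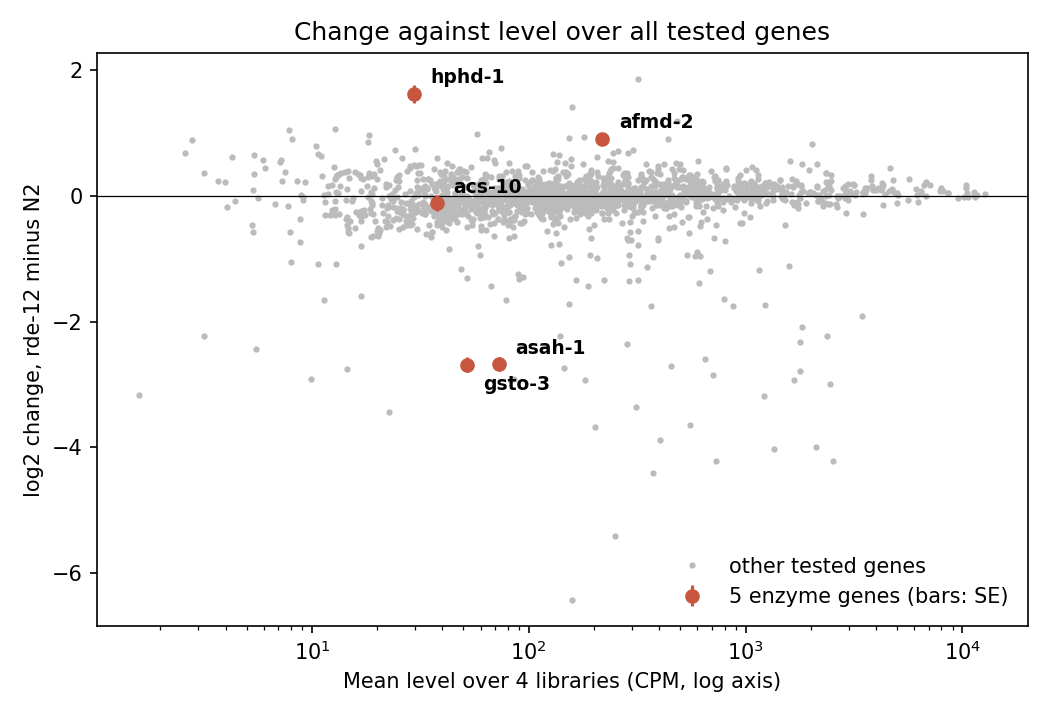
Log2 change (rde-12 minus N2) against mean level over the 4 OP50 libraries (CPM, log axis) for the 1931 tested genes; grey points are other genes, red points the 5 enzyme genes with SE bars. asah-1 and gsto-3 sit at −2.68 in the sparse lower field, hphd-1 at 1.63 and afmd-2 at 0.91 along the upper edge, and acs-10 at −0.11 within the dense band around 0.

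The spread between replicates of the same genotype was set beside counting error for each of the 5 genes. In N2 the coefficient of variation between replicates was 2.86% for asah-1, 0.453% for gsto-3, 2.07% for hphd-1 and 1.64% for afmd-2. Counting error alone would give 4.30%, 5.103%, 12.7% and 3.92% at these counts. The wild-type replicates of these genes were therefore closer than counting error alone gives on average, and 2 libraries give only a rough value of this spread. For acs-10 the coefficient was 8.46% in N2 and 7.996% in rde-12, against 7.72% and 7.44% from counting. In rde-12 the coefficient was 13.7% for asah-1 (counting 10.08%), 8.94% for gsto-3 (11.995%), 10.5% for hphd-1 (6.67%) and 0.174% for afmd-2 (2.65%). Over all tested genes the median was 3.65% in N2 and 3.88% in rde-12. The scaled level in rde-12 was higher in replicate 1 than in replicate 2 for asah-1, gsto-3 and hphd-1, and lower for acs-10.

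Per length, the order of the 5 genes changed between genotypes. Levels were divided by the longest coding length in the Ensembl annotation of assembly WBcel235, which is 1179 bases for asah-1, 927 for gsto-3, 1395 for hphd-1, 816 for afmd-2 and 1698 for acs-10. In N2, afmd-2 stood first with 186 ± 3.05 CPM per kb, ahead of asah-1 with 107 ± 3.06, gsto-3 with 96.6 ± 0.438, acs-10 with 23.0 ± 1.95 and hphd-1 with 10.4 ± 0.214 (SD, n = 2). No neighbours in that order overlapped, although asah-1 exceeded gsto-3 by only 1.11-fold. In rde-12, afmd-2 again stood first with 349.7 ± 0.609 CPM per kb, followed by hphd-1 with 32.0 ± 3.34, acs-10 with 21.4 ± 1.71, asah-1 with 16.6 ± 2.26 and gsto-3 with 14.9 ± 1.33. There asah-1 and gsto-3 overlapped, while the other neighbours did not. The gene that was lowest per kb in wild type, hphd-1, thus stood above acs-10, asah-1 and gsto-3 in the mutant. The new order restates the changes on which the genes were chosen and is not a separate result.

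None of the 5 was among the most heavily targeted genes of the table. Of 1803 tested genes with a coding length, 48.6% had a lower level per kb than asah-1 in N2 and 44.7% a lower one than gsto-3. For afmd-2 that share was 63.4% in N2 and 77.0% in rde-12. Only 1.94% of genes lay below hphd-1 in N2, and 14.3% did in rde-12. acs-10 kept its place near the bottom, with 8.098% of genes below it in N2 and 8.43% in rde-12. In rde-12, asah-1 and gsto-3 dropped to the same region, with 5.602% and 4.71% of genes below them. These shifts between genotypes likewise restate the choice of the genes.

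Summed over the 5 genes, small RNAs were nearly as numerous in both genotypes. The sum was 414 and 428 CPM in the N2 libraries and 403 and 396 CPM in the rde-12 libraries, about 0.0399% to 0.0426% of each library's counts. Its make-up differed. asah-1 and gsto-3 together held 51.5% and 51.1% of the sum in N2 and 8.96% and 7.73% in rde-12. hphd-1 and afmd-2 together held 39.6% and 39.2% in N2 and 82.5% and 82.6% in rde-12. The share of acs-10 stayed between 8.51% and 9.701% in the 4 libraries. These shares describe the chosen genes only.

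The genes share little in structure. By the same annotation they lie on 5 chromosomes, asah-1 on I, hphd-1 on II, gsto-3 on III, afmd-2 on IV and acs-10 on V. Their longest transcripts have 4 exons in asah-1, 5 in gsto-3 and in afmd-2, 7 in acs-10 and 8 in hphd-1. Genome positions are left out, since the sources used here do not name the build the counts rest on. No other annotated gene overlaps asah-1, gsto-3, hphd-1 or acs-10. For these 4 genes, counts from an overlapping gene in this annotation do not enter.

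afmd-2 is the exception, with 3 overlapping protein-coding genes. It shares 20 exon bases with seld-1, a selenophosphate synthetase gene on the same strand. Another 65 of the 858 exon bases of afmd-2 are shared with dcap-2, the gene for the mRNA decapping enzyme, on the opposite strand. puf-3, a gene for a Pumilio-family RNA-binding protein, also lies on the opposite strand and shares 1856 bases of the gene's span but 0 exon bases. Without the strand and the counting rule, reads in the shared bases cannot be assigned, so some of the afmd-2 count may belong to these genes. No row for dcap-2 or puf-3 was analysed here. At seld-1 the N2 libraries had 125 and 113 CPM and the rde-12 libraries 105 and 93.2 CPM, opposite in direction to afmd-2 (log2 change −0.26 ± 0.0875, edgeR adjusted p = 0.0377). That call was lost with library totals (adjusted p = 0.0711), upper-quartile factors (0.0980) and DESeq2 (0.198), and without N2 replicate 1 (0.317) or rde-12 replicate 2 (0.143).

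Next to the other enzyme genes, small RNAs of the nearest measured neighbours did not pass the test. Neighbours were the nearest gene in the table on each side, among the 5 nearest annotated genes. Beside asah-1, T27F6.8 had 1482 and 1416 CPM in the wild-type libraries and 1508 and 1392 CPM in the mutant ones (log2 change 0.00 ± 0.0594, edgeR adjusted p = 0.990). Beside gsto-3, pll-1 (K10F12.3) is the adjacent annotated gene and had 2972 and 2803 CPM in the wild-type libraries and 3034 and 2755 CPM in the mutant ones (0.00 ± 0.0629, adjusted p = 0.971). The libraries of both neighbours overlapped between genotypes, and both carried far more small RNAs in total than the enzyme gene next to them. On the other side of gsto-3, K10F12.6 had a log2 change of 0.08 (edgeR adjusted p = 0.328). Its libraries, at 1790 and 1774 CPM in wild type and 1928 and 1833 CPM in the mutant, did not overlap. Beside hphd-1, Y38F1A.8 had 25.2 and 22.5 CPM in the wild-type libraries and 27.8 and 24.8 CPM in the mutant ones (log2 change 0.15 ± 0.140, edgeR adjusted p = 0.465). Counting only protein-coding genes as places, a choice made after the data were seen, added stim-1, the gene of a calcium sensor, beside gsto-3 (−0.12, edgeR adjusted p = 0.328) and Y38F1A.1 beside hphd-1 (−0.29, adjusted p = 0.0735). Y38F1A.1 had 43.9 and 50.2 CPM in the wild-type libraries and 37.2 and 39.8 CPM in the mutant ones. These did not overlap and went opposite in direction to hphd-1. Libraries did not overlap at 64.2% of all tested genes. For acs-10 no neighbour within 5 places was in the table. The signs of the changes at T27F6.8 and pll-1 turned in some settings, and neither passed the test in any of them.

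**Figure D3:**
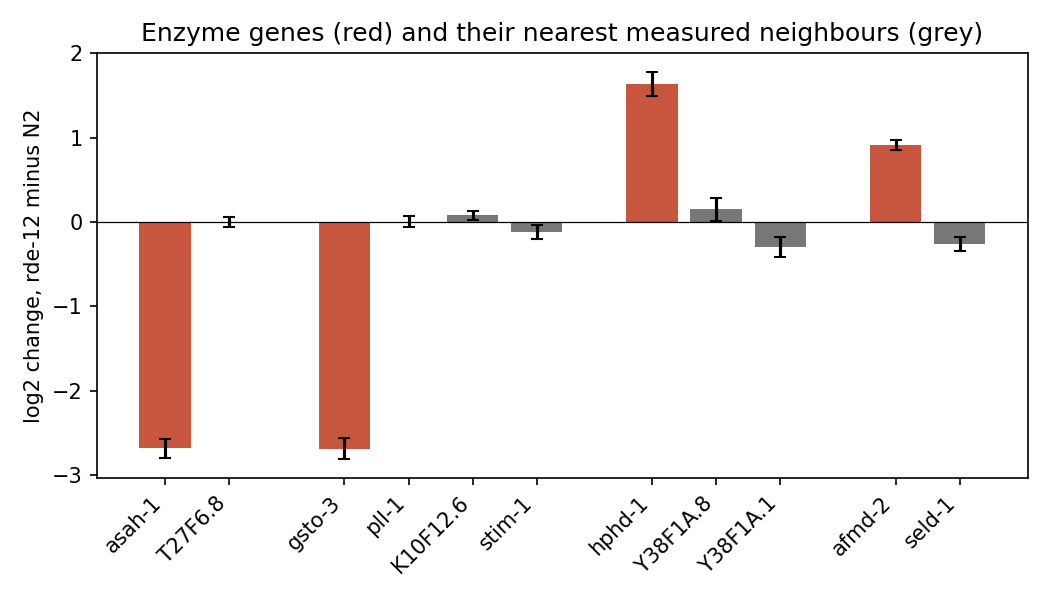
Log2 change (rde-12 minus N2) for 4 enzyme genes (red bars) and the nearest measured neighbours of each (grey bars), with SE as error bars. The neighbours of asah-1, gsto-3 and hphd-1 lie between −0.29 and 0.15, and seld-1, which overlaps afmd-2, lies at −0.26.

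The genes whose pattern over the 4 libraries was most like each enzyme gene were found by the Euclidean distance between log2(CPM + 1) values centred on each gene's mean. The smallest distance between any pair of the 5 was 0.0798, between asah-1 and gsto-3, and that between hphd-1 and afmd-2 was 0.667. Both asah-1 and gsto-3 had the same genes in the first places among the 1916 other genes compared. These were ZK402.2, at distances of 0.113 and 0.108, and chs-2 (F48A11.1), a chitin synthase gene, at 0.146 and 0.115. chs-2 went from 254 ± 0.726 to 37.8 ± 1.98 CPM (n = 2 each). The next was F36G9.15 for asah-1, at 0.175, and R06C1.4 for gsto-3, at 0.123. Few genes came near: 4 lay within 0.25 of asah-1 and 5 within 0.25 of gsto-3.

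hphd-1 had 1 gene within 0.25, C11D2.3 at 0.196, which went from 86.7 ± 0.475 to 231 ± 4.41 CPM. T16H12.2 (0.329) and the collagen gene col-111 (0.364) came next. For afmd-2, 10 genes lay within 0.25. The nearest was irx-1, an Iroquois-type homeobox gene, at 0.0765, which went from 38.7 ± 0.636 to 76.7 ± 0.869 CPM, ahead of F31C3.6 (0.0935) and Y71F9B.13 (0.102). For acs-10, 847 genes lay within 0.25, among them dpf-3 (0.00888), spe-39 (0.0253) and nrde-4 (0.0270), so its pattern was a common one. With 4 libraries, this measure mostly reflects the size of the difference between genotypes.

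The 5 genes were set beside other enzyme genes, listed by symbol from general knowledge and not by how each moved. Earlier results of these data were known when the lists were made, and most lists follow the pathways or families of the 5 genes. The lists hold 493 symbols, of which 34 are in the table, and 29 besides the 5 were tested. Of these 29, small RNAs fell at 1 and rose at 7, and 21 did not pass edgeR's test. The share called in either direction, 27.6%, is near the 27.7% of all tested genes. By direction, 13.9% of all tested genes fell and 13.8% rose, so the split of the 29 was less even. That imbalance was not tested. The median log2 change was 0.10, against −0.02 over all tested genes, and the values ran from −0.30 to 0.72. None of the 29 changed as much as asah-1, gsto-3, hphd-1 or afmd-2. Those genes were picked on their change, so nothing is read from this contrast. Over all genes, 268 fell and 267 rose, and the split moved with the scaling, to 221 and 333 with library totals and to 202 and 370 with upper-quartile factors.

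In propionate breakdown, 4 genes besides hphd-1 were tested. Small RNAs at alh-8, the gene for the enzyme that follows HPHD-1 in the shunt, were 76.7 and 83.2 CPM in N2 and 94.0 and 108 CPM in rde-12, a rise of 1.26-fold (log2 change 0.33 ± 0.0955, edgeR adjusted p = 0.0171). The call was lost with DESeq2 (adjusted p = 0.0722) and without N2 replicate 1 (0.131) or rde-12 replicate 2 (0.0860). hach-1, whose enzyme comes just before HPHD-1 in the shunt, had 73.4 and 94.2 CPM in the wild-type libraries and 86.4 and 83.5 CPM in the mutant ones (log2 change 0.02, adjusted p = 0.911). Its wild-type libraries lay on both sides of the mutant ones. mce-1 and mmaa-1 serve the other route of propionate breakdown, which depends on vitamin B12, and had log2 changes of −0.10 (adjusted p = 0.465) and 0.00 (adjusted p = 0.989). Whether hphd-1 differs from these genes was not tested, since it was picked for its change.

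Among the acyl-CoA synthetase genes, 4 besides acs-10 were tested, of which 2 rose and 0 fell. Over all tested genes 13.8% rose and 13.9% fell, and a list this short shows no trend of the family. acs-5 rose from 834 and 829 CPM in wild type to 1086 and 1005 CPM in the mutant (log2 change 0.33 ± 0.0580, edgeR adjusted p = 0.000435). acs-2, whose enzyme feeds fatty acids into mitochondrial oxidation, went from 358 and 359.5 CPM to 398 and 406 CPM (0.16 ± 0.0579, edgeR adjusted p = 0.0478). That call was lost when any 1 of the 4 libraries was left out (adjusted p between 0.0946 and 0.128), with DESeq2 (0.116) and with the replicate number as a block (0.0568). acs-6 had wild-type levels of 42.3 and 45.1 CPM and mutant levels of 29.4 and 44.0 CPM (log2 change −0.27, edgeR adjusted p = 0.210). rde-12 replicate 1 decided its value: without it the log2 change was 0.02 (adjusted p = 0.959), and without replicate 2 it was −0.57 (0.00165). acs-4 had a log2 change of −0.09 (edgeR adjusted p = 0.388).

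The pathways of asah-1, gsto-3 and afmd-2 had few other genes in the table. Of the sphingolipid genes, sptl-1, which encodes a subunit of the enzyme that starts sphingolipid synthesis, was the only other one tested (from 116 ± 8.49 to 124 ± 2.61 CPM in rde-12, at a log2 change of 0.10 and an edgeR adjusted p of 0.401). Of the glutathione genes it was gcs-1, whose product carries out the rate-limiting step of glutathione synthesis (124 and 126 CPM in wild type, 116 and 120.2 CPM in the mutant, log2 change −0.08, edgeR adjusted p = 0.443). Of the tryptophan and kynurenine genes besides afmd-2, 0 were in the table.

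Other enzyme families, found by symbol prefix, added 20 tested genes, alh-8 included, of which 5 rose and 1 fell. The shares over all tested genes were 13.8% and 13.9%. ckb-4, a choline kinase gene, rose from 199 and 191 CPM to 327 and 314 CPM, 1.65-fold (log2 change 0.72 ± 0.0617, edgeR adjusted p = 1.52e-07). pho-11, an acid phosphatase gene, rose from 131 and 133 CPM to 189.5 and 175 CPM (0.47 ± 0.0685, adjusted p = 6.64e-05). got-1.2, an aspartate aminotransferase gene, and ugt-31, of the UDP-glucuronosyltransferase family, rose with log2 changes of 0.25 and 0.22 (edgeR adjusted p = 0.00725 and 0.00583). The call for got-1.2 was lost without N2 replicate 1 (adjusted p = 0.0662), N2 replicate 2 (0.0652) or rde-12 replicate 1 (0.0622). The gene that fell was ugt-64, of the same family as ugt-31, with 71.9 and 66.5 CPM in wild type against 53.9 and 58.5 CPM in the mutant (log2 change −0.30 ± 0.102, edgeR adjusted p = 0.0370). Its call was lost without N2 replicate 1 (adjusted p = 0.262) or rde-12 replicate 1 (0.202) and in 4 other settings. gpd-2, a glyceraldehyde-3-phosphate dehydrogenase gene, had few counts, with 4.78 ± 0.376 CPM in wild type and 6.04 ± 0.958 CPM in the mutant (log2 change 0.35, edgeR adjusted p = 0.398). It has near-identical copies in the genome, which leaves its value uncertain. got-1.2, ugt-31 and ugt-64 are named to complete the counts.

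**Figure D4:**
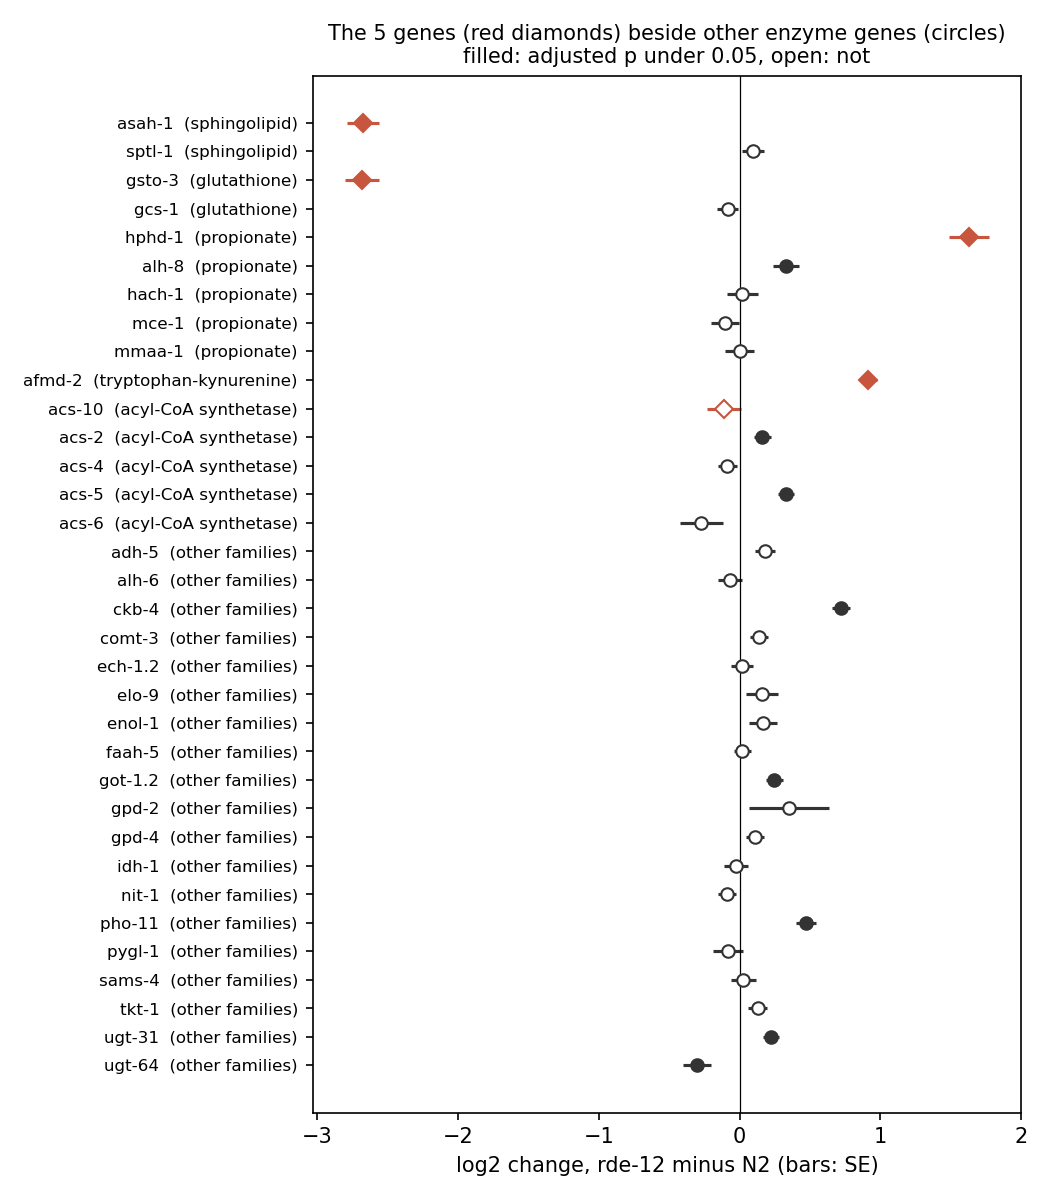
Log2 change (rde-12 minus N2, bars SE) of the 5 genes (red diamonds) and 29 other tested enzyme genes (black circles), by pathway; filled symbols had an edgeR adjusted p under 0.05. The 29 other genes lie between −0.30 and 0.72, asah-1 and gsto-3 lie at −2.68, and hphd-1 and afmd-2 at 1.63 and 0.91. The 5 genes were selected on their measured counts, so this contrast was not tested.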

How the data were processed

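The deposited table gives raw small RNA counts for each gene in the 4 OP50 libraries, as whole numbers that the authors had not normalized. The submitters' processing notes name TopHat 1.4.1, SAMtools and bedtools. The sources used here do not give the build, annotation, strand, treatment of reads with several matches or how genes were picked, and each could shift counts between similar or overlapping genes. Of 1959 rows, 22 repeated another row and were counted once. IDs of 1900 of 1937 genes matched a RefSeq gene table (WBcel235), used for names and neighbours. Coding lengths were found for 93.4% of genes.

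All genes were fitted together in R 4.3.3 by edgeR 4.0.16 with TMM factors, after filterByExpr had taken out 6 genes, and the quasi-likelihood p-values were adjusted by Benjamini-Hochberg over 1931 genes and a threshold of 0.05. Standard errors were derived from each gene's log2 change and F statistic. DESeq2 1.42.0, other scalings, no filter, a replicate block and leaving out each library were alternatives. Counts were also simulated for this comparison over 1931 genes, with the same spread between replicates for every gene and equal numbers of rises and falls. On these, the test called 60% of genes changed 1.25-fold, 96% at 1.5-fold, 100% at 2-fold and 98% at 4-fold. There were 9 false calls among 186. Spread differs between the real genes, so these rates need not hold for them. Between replicates, chi-square per degree of freedom was 3.497 in N2 and 4.13 in rde-12, above sampling noise, so no library looked like a second deposit of another. The genes and lists were chosen with earlier results of these data known. Genes named beside the 5 were the 3 most alike in pattern with a mean of at least 5 CPM, the nearest measured neighbours and the up to 3 most changed of each enzyme list, others to complete counts. No sequences are shown, because none was in the files used here.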

Additional observations from a re-analysis of the deposited data

How the results depend on the processing

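Under 10 alternative settings, 309 of 340 values of other named genes kept direction and side of the threshold, and 30 of 40 counts stayed within 1.5 times the main count. The 5 genes kept their direction in all 50 of theirs, and 45 of these moved by less than the spread between replicates. afmd-2, whose replicates were closest, had a log2 change of 0.94 with library totals, 0.96 with upper-quartile factors and 0.91 to 0.93 with 1 library left out. With 1 library left out, asah-1 ran from −2.83 to −2.56 and gsto-3 from −2.78 to −2.60. Such fits take the lone library of a genotype to vary like those of the other. DESeq2 called 157 falls over all genes, and with 1 library left out there were 175 to 304 falls and 165 to 308 rises. Among the other enzyme genes, the count of falls was 0 with library totals, upper-quartile factors, DESeq2 or the replicate block, and 0 to 2 with 1 library left out, when rises numbered 4 to 8; the cause was not tested. Signs turned for changes that were not called with all libraries. With 1 library left out T27F6.8 ran from −0.050 to 0.057, pll-1 from −0.059 to 0.071, hach-1 from −0.14 to 0.21 and acs-6 from −0.57 to 0.018. With the replicate block T27F6.8 was at −2.99e-05. The replicate numbers were not taken as pairs, since the labels do not say that a number marks a shared batch. Deviations of same-numbered libraries hardly went together (r = 0.0210 over genes), but 2 pairs cannot settle whether the libraries were paired. With the block 230 genes fell and 243 rose. Counts of 60 to 189 a library at hphd-1 in N2 and at acs-10 limit what can be seen there.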
